A study of Mus musculus with 12 samples.

Results

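Nuclear pore complex genes are described here in mouse bone marrow-derived macrophages depleted of MOF, the lysine acetyltransferase that Kat8 encodes. The members are the rows whose gene name is Nup followed by a digit, Nupl1 or Nupl2, or belongs to a list of further subunits (Ndc1, Pom121, Tpr, Rae1, Sec13, Seh1l, Aaas, Ranbp2, Ahctf1 and Gle1). They came to 32 of the 14264 genes in the tables, and all 32 had an adjusted p in both comparisons. Cells had received a control hairpin RNA (shCTRL, labelled wild type) or a short hairpin against MOF (shMOF), and were unstimulated or had received lipopolysaccharide (LPS, a bacterial product sensed by TLR4) at 100 ng/ml for 3 h. Each of the 4 groups had 3 libraries. The labels give no strain, sex or age, and they name no other MOF hairpin and no rescue, so loss of MOF and unrelated hairpin effects cannot be told apart. The libraries are numbered without a source animal or culture, and p-values therefore measure only the spread between these samples, which may be technical.

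The nuclear pore complex is the channel through the nuclear envelope that carries large cargo between nucleus and cytoplasm. Outer and inner ring scaffolds, anchored by transmembrane subunits, hold a central channel lined with phenylalanine-glycine (FG) repeats, with filaments on the cytoplasmic face and a basket on the nuclear face. Pores are taken apart and rebuilt at each mitosis and are added during interphase, and several subunits also bind chromatin. In fruit flies MOF was purified together with the basket proteins Nup153 and Megator, the fly form of Tpr.

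For each gene the tables give a mean normalized count, and for each state a log2 fold change of shMOF over shCTRL with its standard error (SE) and adjusted p. They hold no value per library, so the single libraries cannot be shown and their depth is unknown. A gene is called higher or lower here at an adjusted p under 0.05 in the authors' DESeq2 test, with no minimum fold. The hairpin lowered its target, Kat8, with a log2 fold change of -2.25 (adjusted p = 2.08e-101, SE 0.10) unstimulated and -2.31 (adjusted p = 4.86e-67, SE 0.13) at LPS 3 h by the authors' deposited table. All 8 macrophage markers checked, such as Adgre1 and Csf1r, had a row, with mean normalized counts from 1233 to 259735. With shMOF these 8 were all higher unstimulated (median log2 fold change 0.45), and 6 were higher and 0 lower at LPS 3 h (median 0.25). Among all genes tested 21.3% were higher and 17.8% lower unstimulated, and 28.1% higher and 20.0% lower at LPS 3 h. Of 4 T cell markers 0 had a row, and 1 of 5 neutrophil, 1 of 4 B cell and 1 of 4 dendritic cell markers did, with means between 21 and 104. Of these the B cell marker Cd79b was higher with shMOF in both states, and the dendritic cell marker Zbtb46 at LPS 3 h. Progenitor markers had 3 of 4 rows with means of at most 40.5. With shMOF 2 of them, Kit and Cd34, were lower in unstimulated cells, and Cd34 was lower at LPS 3 h too. Fibroblast markers had 4 of 4 rows with means from 17.9 to 667, and 3 of these were higher with shMOF in both states. The part of such cells in the results below was not tested, and in bulk RNA fewer cells of a type and less RNA per cell cannot be told apart.

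In unstimulated macrophages MOF knockdown lowered nuclear pore transcripts, from every part of the pore except Nup98. Of the 32 members 19 were lower (59.4%) and 0 higher, against 17.8% lower and 21.3% higher among all genes tested. The DESeq2 p before adjustment gave the same counts at 0.05, 0 higher and 19 lower. Among genes whose mean normalized count was at least 50, where 31 of the members lie, 21.9% were lower and 26.5% higher. The median log2 fold change of the members was -0.24, with 28 of 32 below 0, and the median of all genes was 0.03. Most falls were modest: 7 of the 19 remained called against a null of a log2 change of at most 0.25, and 5 of the 19 had a fall of at least 0.5. Proliferation genes moved with them. All 30 on a fixed list were lower in unstimulated cells, with a median of -2.02, and Prc1, a spindle midzone gene, fell most, with -2.56 (SE 0.08) by the authors' deposited table. The part of the proliferation genes, or of the macrophage markers that were higher, in the fall of the pore genes was not tested.

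After 3 h of LPS pore genes were called in both directions, and lower ones exceeded the background share. Of the 32 members 14 were lower (43.8%) and 10 higher (31.2%), against 20.0% lower and 28.1% higher among all genes tested, or 24.1% and 33.8% among genes with a mean of at least 50. The share of members that were higher was thus near the background. The median log2 fold change of the members was -0.06, and that of all genes 0.03. Only 3 of the 14 and 3 of the 10 remained called against a null of at most 0.25. Of the 30 proliferation genes 28 were lower in this state and 1 was higher, with a median of -1.34. The higher gene was Mki67, at 0.83 (SE 0.06), and Prc1 again fell most, at -1.81 (SE 0.09), by the authors' deposited table. The knockdown effect on the 30 proliferation genes differed upward between the states for 24 and downward for 0, against 18.2% and 12.4% of all genes tested.

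**Figure D1:**
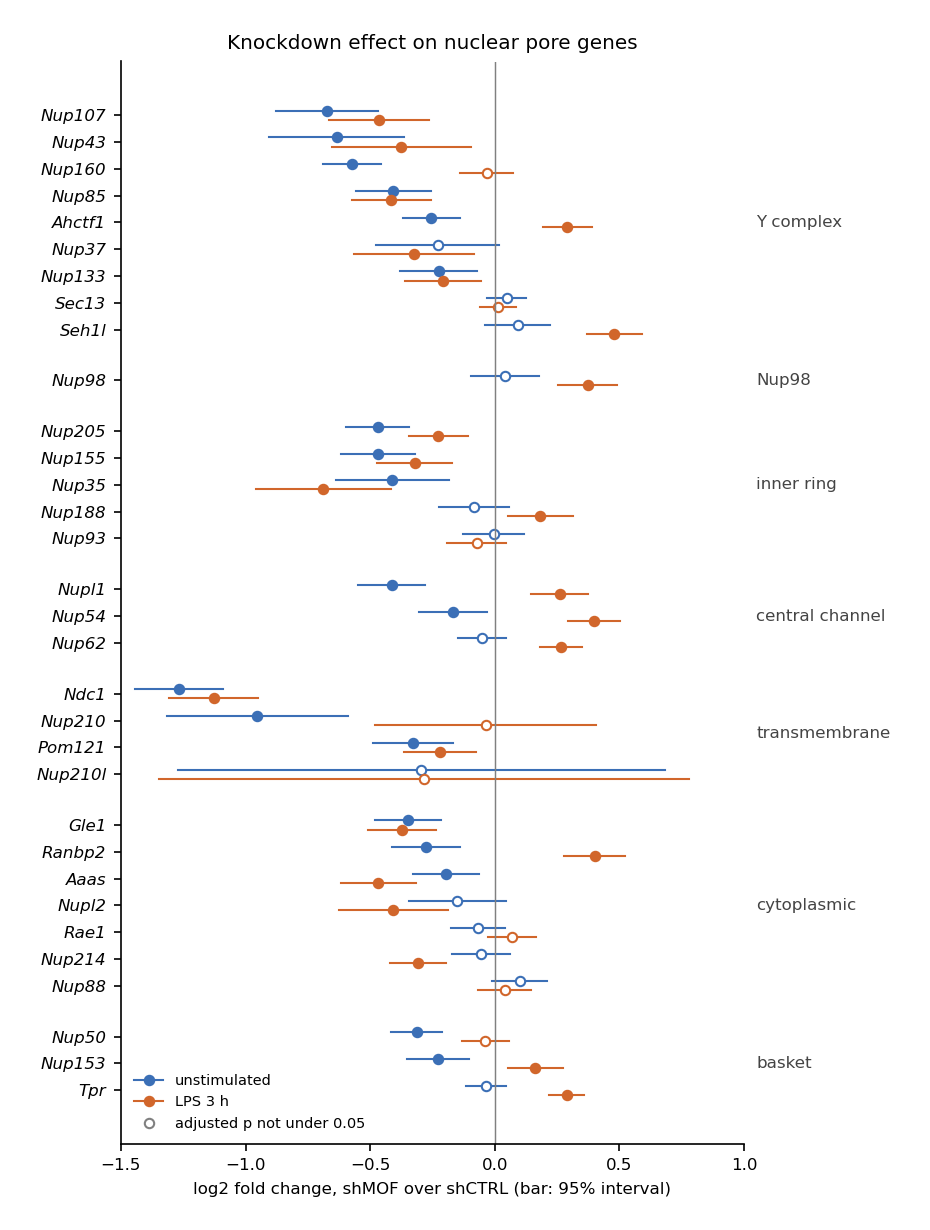
Log2 fold change of shMOF over shCTRL for each of the 32 member genes (rows, grouped by part of the pore) in unstimulated cells (blue) and at LPS 3 h (orange), with 95% intervals as bars and open circles for genes not called at an adjusted p under 0.05. The unstimulated points lie at or left of 0 apart from Seh1l, Sec13, Nup98 and Nup88, none of them called, while the 3 central channel genes all lie right of 0 at LPS 3 h.

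The knockdown effect itself differed between the states for 16 members. The difference, LPS 3 h minus unstimulated, was tested by a normal test on the deposited effects and their SE, adjusted over 12994 genes. It was positive for 14 members (43.8%) and negative for 2 (6.25%), against 18.2% and 12.4% of all genes tested, or 21.1% and 14.3% of those with a mean of at least 50. The median difference over the members was 0.18, compared with 0.00 over all genes. By calls in both states, 11 members were lower in both (34.4%), against 9.47% of all genes, and 5 went from lower to higher (15.6%), against 2.42%. A further 3 were lower only in unstimulated cells, 5 higher only at LPS 3 h and 3 lower only at LPS 3 h. The other 5 (Sec13, Nup93, Nup88, Rae1 and Nup210l) were called in neither. Across the 32 members the effects in both states had Pearson's r of 0.60 and Spearman's rho of 0.52, and across 12994 genes 0.49 and 0.43. The genes share libraries within a state and are not independent.

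**Figure D2:**
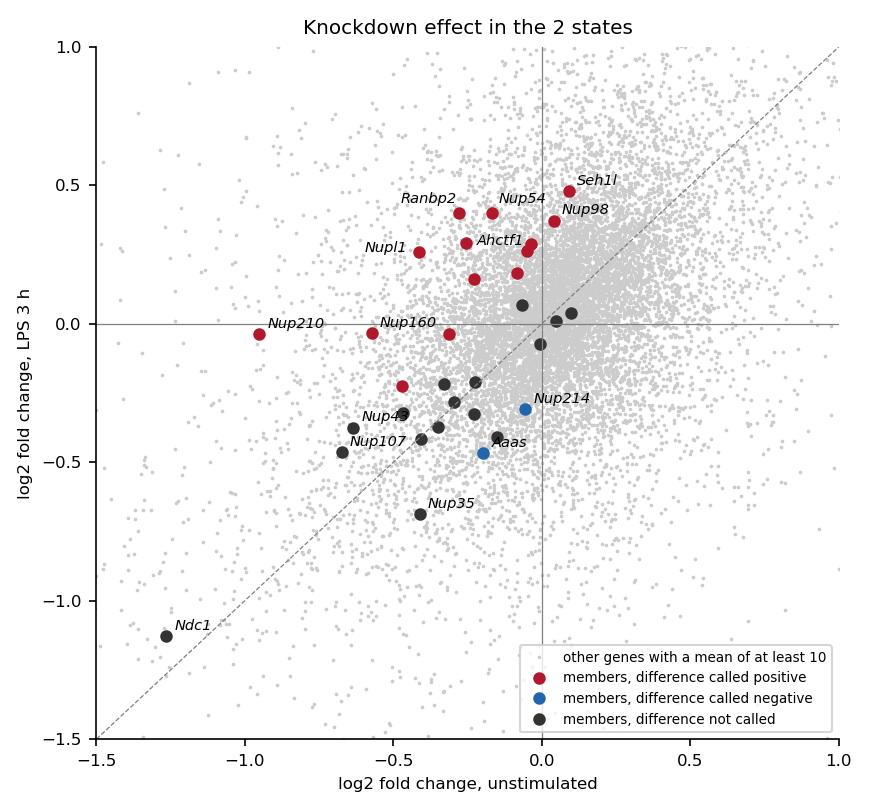
Log2 fold change of shMOF over shCTRL in unstimulated cells (horizontal) against LPS 3 h (vertical), with member genes as large points coloured by the test of the difference and other genes whose mean normalized count was at least 10 in grey; genes beyond the axes are not drawn, and the dashed line marks equal effects. Ndc1 lies near the dashed line at the lower left, and Ranbp2, Nupl1, Nup54 and Ahctf1 lie above it in the upper left part.

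The transmembrane ring, which anchors the pore in the envelope, held the largest falls. Ndc1, the subunit that links the membrane to the inner ring, fell to 41.6% of control (95% interval 36.8 to 46.9) in unstimulated cells, a log2 fold change of -1.27 (adjusted p = 1.85e-43, SE 0.09) in the authors' deposited table. At LPS 3 h it was at 45.8% of control (40.4 to 51.8), or -1.13 (adjusted p = 1.07e-33, SE 0.09) in the authors' deposited table. Ndc1 (chromosome 4 from 107367784 to 107416346, plus strand, in GENCODE M21 on GRCm38) was thus lower by a similar amount in both states, and the difference of 0.14 (95% interval -0.11 to 0.39) did not pass. Nup210, whose large domain lies in the lumen of the envelope, behaved otherwise. It had a log2 fold change of -0.95 (adjusted p = 2.12e-06, SE 0.19) unstimulated and -0.04 (adjusted p = 0.914, SE 0.23) at LPS 3 h by the authors' deposited table. Its difference of 0.92 (adjusted p = 0.00824, SE 0.29) was the largest among the members, with a wide interval of 0.34 to 1.49. The call was lost with the SE of the difference taken as the sum of both SE (adjusted p = 0.123), and Nup210 is a low-level gene with a mean normalized count of 100.4. Pom121, which joins the membrane to the scaffold and takes part in pore assembly in interphase, had -0.33 (adjusted p = 3.06e-04, SE 0.08) and -0.22 (adjusted p = 0.00807, SE 0.07) in the authors' deposited table, lower in both states. Its annotated exons overlap those of Nsun5, on the opposite strand, over 665 bases, and Nsun5 was also lower, with -0.57 and -0.40 in the authors' deposited table. The sources used here do not say whether the authors' counting used strand. Nup210l, a paralogue of Nup210 with a mean normalized count of 11.2, had -0.29 (SE 0.50) and -0.28 (SE 0.54) by the authors' deposited table, so that a change as large as that of Pom121 was not detectable at this depth.

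In the Y complex, the outer ring scaffold, 6 of 9 genes were lower unstimulated, and at LPS 3 h 5 were lower and 2 higher. Among all genes tested 17.8% were lower unstimulated, and 20.0% were lower and 28.1% higher at LPS 3 h, so the 2 higher did not exceed the background share. Nup107 (chromosome 10 from 117750621 to 117792705, minus strand), a stem subunit, fell to 62.7% of control (54.4 to 72.2) unstimulated, a log2 fold change of -0.67 (adjusted p = 1.08e-09, SE 0.10), and had -0.46 (adjusted p = 2.70e-05, SE 0.10) at LPS 3 h by the authors' deposited table. Nup85, on the short arm, had -0.41 (adjusted p = 8.63e-07, SE 0.08) and -0.42 (adjusted p = 1.62e-06, SE 0.08) in the authors' deposited table. Nup133, at the tip of the stem, had -0.23 (adjusted p = 0.0128, SE 0.08) and -0.21 (adjusted p = 0.0174, SE 0.08) in the authors' deposited table. These 3 were lower in both states, with differences that did not pass, though both Nup133 calls were lost at a threshold of 0.01. Nup43, a small propeller subunit of the short arm, had -0.63 (adjusted p = 3.05e-05, SE 0.14) and -0.37 (adjusted p = 0.0202, SE 0.14) in the authors' deposited table. It was lower in both states too, its LPS 3 h call being lost at 0.01. Nup37, which binds Nup160, was at -0.23 (adjusted p = 0.143, SE 0.13) and -0.32 (adjusted p = 0.0188, SE 0.12) in the authors' deposited table, called at LPS 3 h alone, with a difference of -0.10 that did not pass (adjusted p = 0.731).

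Of the other Y complex genes, Nup160, Ahctf1 and Seh1l diverged between the states. The difference for Sec13, at -0.04, did not pass (adjusted p = 0.667). Nup160 (chromosome 2 from 90677215 to 90736328, plus strand), on the long arm, fell to 67.2% of control (62.0 to 72.9) unstimulated, a log2 fold change of -0.57 (adjusted p = 1.16e-20, SE 0.06), and stood at 97.8% (90.8 to 105) at LPS 3 h, or -0.03 (adjusted p = 0.664, SE 0.05), in the authors' deposited table. The difference for Nup160 was 0.54 (adjusted p = 5.82e-10, SE 0.08). Ahctf1, which encodes ELYS, the chromatin-binding subunit that starts pore assembly after mitosis, went from lower to higher. It had -0.26 (adjusted p = 6.81e-05, SE 0.06) unstimulated and 0.29 (adjusted p = 6.59e-08, SE 0.05) at LPS 3 h by the authors' deposited table, a difference of 0.55 (adjusted p = 5.57e-11, SE 0.08). Seh1l is a propeller protein that also serves in the GATOR2 complex of nutrient signalling. It was at 0.09 (adjusted p = 0.291, SE 0.07) unstimulated and higher with shMOF by 0.48 (adjusted p = 2.04e-16, SE 0.06) at LPS 3 h by the authors' deposited table. That was the largest rise of any member, and its difference was 0.39 (adjusted p = 8.61e-05, SE 0.09). Sec13, which also forms the COPII vesicle coat, had 0.05 (SE 0.04) and 0.01 (SE 0.04), with adjusted p = 0.364 and 0.824, in the authors' deposited table. The Y complex genes thus spanned effects from -0.46 to 0.48 at LPS 3 h. Nup98 encodes both an FG subunit and, by cleavage of a longer product, the Y complex subunit Nup96. It had 0.04 (adjusted p = 0.694, SE 0.07) unstimulated and was higher with shMOF by 0.37 (adjusted p = 5.44e-09, SE 0.06) at LPS 3 h by the authors' deposited table, with a difference of 0.33 (adjusted p = 0.00186, SE 0.09). That call too was lost with the summed SE (adjusted p = 0.0638).

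Inner ring genes were mostly lower in both states, 3 of 5 each time, with 1 higher at LPS 3 h. The shares over all genes tested were 17.8% lower unstimulated, and 20.0% lower and 28.1% higher at LPS 3 h, so the 1 higher did not exceed the background share. Nup205, a large scaffold subunit, had -0.47 (adjusted p = 5.85e-12, SE 0.06) and -0.23 (adjusted p = 7.25e-04, SE 0.06) in the authors' deposited table. Nup188, the paralogue of Nup205 that takes an equivalent place in the ring, had -0.08 (adjusted p = 0.384, SE 0.07) and 0.18 (adjusted p = 0.0148, SE 0.07) in the authors' deposited table. Both knockdown effects were more positive at LPS 3 h, by 0.24 (adjusted p = 0.0239, SE 0.09) for Nup205 and 0.27 (adjusted p = 0.0256, SE 0.10) for Nup188. These differences were lost at a threshold of 0.01. Nup155, a membrane-binding scaffold subunit, had -0.47 (adjusted p = 7.56e-09, SE 0.08) and -0.32 (adjusted p = 1.13e-04, SE 0.08) in the authors' deposited table. Nup35, which binds Nup155 and Ndc1, had -0.41 (adjusted p = 0.00152, SE 0.12) and stood at 62.1% of control (51.4 to 74.9) at LPS 3 h, or -0.69 (adjusted p = 3.13e-06, SE 0.14), in the authors' deposited table. Its difference of -0.28 (adjusted p = 0.251, SE 0.18) did not pass. Nup35 shares 131 bases of annotated exon with Dusp19 on the same strand, which was not called, with 0.13 (SE 0.12) and -0.26 (SE 0.15) by the authors' deposited table. Nup93, the hub of the inner ring, was near 0 in both states, at -0.0048 (SE 0.06) and -0.07 (SE 0.06) by the authors' deposited table, with intervals of 91.6 to 108% and 87.6 to 103% of control.

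The products of the central channel genes form the FG trimer that lines the transport path. For all 3 of these genes the knockdown effect was called more positive at LPS 3 h than unstimulated, against 18.2% of all genes tested. Nupl1, which encodes Nup58, had a log2 fold change of -0.41 (adjusted p = 1.20e-08, SE 0.07) unstimulated, 75.1% of control (68.5 to 82.3), in the authors' deposited table. At LPS 3 h Nupl1 was at 120% of control (111 to 130), or 0.26 (adjusted p = 3.31e-05, SE 0.06), in the authors' deposited table, a difference of 0.67 (adjusted p = 2.22e-12, SE 0.09). Nup54 went from -0.17 (adjusted p = 0.0418, SE 0.07) to 0.40 (adjusted p = 1.15e-12, SE 0.05) in the authors' deposited table, a difference of 0.57 (adjusted p = 2.93e-09, SE 0.09), its unstimulated call being lost at a threshold of 0.01. Nup62 was at -0.05 (adjusted p = 0.438, SE 0.05) and 0.26 (adjusted p = 4.28e-09, SE 0.04) in the authors' deposited table, a difference of 0.32 (adjusted p = 1.25e-05, SE 0.06). All 3 were thus higher with shMOF at LPS 3 h, against 28.1% of all genes tested. The Nup62 gene overlaps Il4i1, an amino acid oxidase gene on the same strand, with 97 bases of exon in common, so reads there could be split between them. Il4i1 was higher with shMOF in both states, by 0.76 (SE 0.16) and 0.49 (SE 0.07) by the authors' deposited table, and its part in the Nup62 value was not tested. On the opposite strand Atf5 shares 82 bases of exon with Nup62 and was also higher in both states, by 0.19 (SE 0.06) and 0.18 (SE 0.05) by the authors' deposited table. Nupl1 shares 241 bases of annotated exon with Atp8a2 on the same strand, which had -0.79 (SE 0.16) and -0.42 (SE 0.17) by the authors' deposited table. The part of Atp8a2 in the Nupl1 value was not tested.

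For every gene of the nuclear basket, which gathers export cargo and touches chromatin, the knockdown effect was more positive at LPS 3 h than unstimulated. The difference was called for all 3, against 18.2% more positive among all genes tested. Its median was also positive in every other part of the pore except the cytoplasmic face, at -0.06. Nup153, the basket anchor, had -0.23 (adjusted p = 0.00140, SE 0.06) unstimulated and 0.16 (adjusted p = 0.0101, SE 0.06) at LPS 3 h by the authors' deposited table, a difference of 0.39 (adjusted p = 4.42e-05, SE 0.08). Its LPS 3 h call was lost at a threshold of 0.01. Tpr, the coiled-coil protein that forms the basket's struts, had -0.03 (adjusted p = 0.535, SE 0.04) and 0.29 (adjusted p = 1.61e-14, SE 0.04) in the authors' deposited table, a difference of 0.32 (adjusted p = 4.33e-08, SE 0.05). Nup50, a mobile partner of Nup153 that helps release import cargo, had -0.31 (adjusted p = 2.14e-08, SE 0.05) and -0.04 (adjusted p = 0.548, SE 0.05) in the authors' deposited table, a difference of 0.28 (adjusted p = 7.15e-04, SE 0.07). Tpr shares 176 bases of annotated exon with Odr4 on the opposite strand, which was not called, at -0.11 (SE 0.05) and -0.05 (SE 0.05) by the authors' deposited table. So Nup50 was lower unstimulated, Tpr higher at LPS 3 h, and Nup153 both.

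Of 7 genes on the cytoplasmic face, 2 (Nup214 and Aaas) had a knockdown effect called more negative at LPS 3 h. For 1, Ranbp2, it was called more positive, and for the other 4 the difference was not called. Among all genes tested 12.4% were more negative and 18.2% more positive, so the 1 positive did not exceed the background share. Ranbp2 (chromosome 10 from 58446920 to 58494356, plus strand) encodes Nup358, the giant filament protein that binds Ran and acts as a SUMO ligase. It stood at 82.5% of control (75.1 to 90.7) unstimulated, a log2 fold change of -0.28 (adjusted p = 3.32e-04, SE 0.07), and at 132% (121 to 144) at LPS 3 h, or 0.40 (adjusted p = 8.69e-10, SE 0.06), in the authors' deposited table. The difference for Ranbp2 was 0.68 (adjusted p = 1.38e-11, SE 0.09). Nup214, an FG filament protein, went the other way, at -0.06 (adjusted p = 0.509, SE 0.06) and -0.31 (adjusted p = 4.55e-07, SE 0.06) in the authors' deposited table, a difference of -0.25 (adjusted p = 0.0106, SE 0.08). Its partner Nup88 was not called in either state, at 0.10 (SE 0.06) and 0.04 (SE 0.05) by the authors' deposited table. Nup88 shares 48 bases of exon with Rabep1 on the opposite strand, which was higher in both states, by 0.29 (SE 0.05) and 0.51 (SE 0.05) by the authors' deposited table. Nup214 shares 177 bases of annotated exon with Fam78a on the opposite strand, which had 0.47 (SE 0.06) and -0.89 (SE 0.17) by the authors' deposited table. The part of Fam78a in the Nup214 value was not tested.

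Aaas, which encodes ALADIN, had -0.20 (adjusted p = 0.0123, SE 0.07) and -0.47 (adjusted p = 6.93e-09, SE 0.08) in the authors' deposited table, a difference of -0.27 (adjusted p = 0.0299, SE 0.10). The differences of both Aaas and Nup214 were lost at a threshold of 0.01, and so was the unstimulated call of Aaas. Gle1, which switches on the helicase that strips export proteins from mRNA, was lower in both states, with -0.35 (adjusted p = 2.05e-06, SE 0.07) and -0.37 (adjusted p = 5.19e-07, SE 0.07) in the authors' deposited table. Nupl2, which encodes Nup42, the pore anchor of Gle1, had -0.15 (adjusted p = 0.236, SE 0.10) and -0.41 (adjusted p = 9.01e-04, SE 0.11) in the authors' deposited table, with a difference of -0.26 (adjusted p = 0.193, SE 0.15). Rae1, an mRNA export factor that docks on Nup98, was not called, at -0.07 (SE 0.06) and 0.07 (SE 0.05) by the authors' deposited table.

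**Figure D3:**
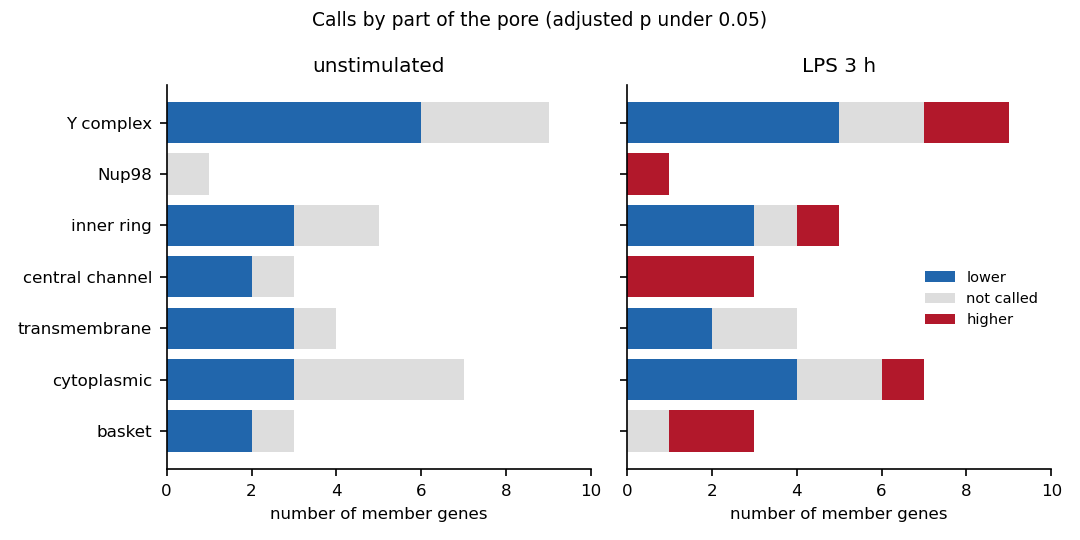
Number of member genes called lower (blue), higher (red) or not called (grey) at an adjusted p under 0.05 in each part of the pore, unstimulated on the left and at LPS 3 h on the right. Red is absent on the left, and on the right it fills the bar of the central channel, with 3 of 3, and reaches 2 of 3 in the basket. Among all genes tested 21.3% were higher unstimulated and 28.1% at LPS 3 h.

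The member genes differed in level. As mean normalized count per kb of annotated exon, a level over libraries whose set is not stated, the highest were Nup62 at 1112, Tpr at 788, Sec13 at 759 and Ranbp2 at 692. The lowest were Nup35 at 48.4, Nup210 at 9.58 and Nup210l at 1.96. Within the Y complex the level per kb ran from 57.1 for Nup37 to 759 for Sec13. Of the 16 members with the higher level per kb, 7 were lower unstimulated, and 9 were higher and 3 lower at LPS 3 h. Of the other 16, 12 were lower unstimulated, and at LPS 3 h 1 was higher (Ahctf1) and 11 were lower. Among all genes tested 17.8% were lower unstimulated, and 28.1% were higher and 20.0% lower at LPS 3 h. Across the 32 members Spearman's rho between level per kb and log2 fold change was 0.55 unstimulated and 0.63 at LPS 3 h, with Pearson's r on the log2 level of 0.43 and 0.44. These are descriptions over genes that share libraries, and the level is itself computed from libraries of the comparison.

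**Figure D4:**
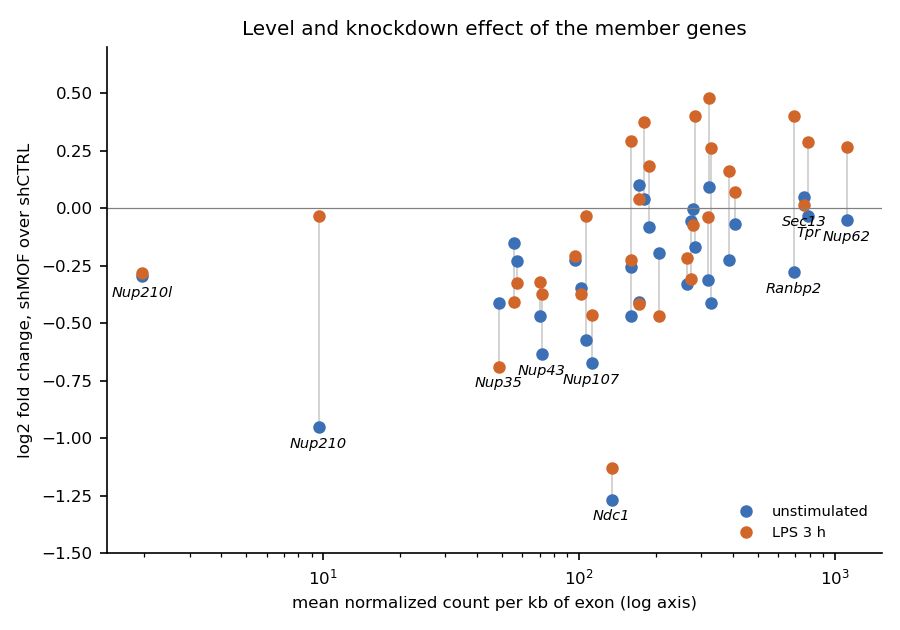
Log2 fold change of shMOF over shCTRL (vertical) against the mean normalized count per kb of exon (horizontal, log axis) for the 32 member genes, unstimulated in blue and LPS 3 h in orange, a grey line joining the values of a gene. Ranbp2, Tpr and Nup62, at 692 to 1112 per kb, lie above 0 at LPS 3 h, and Ndc1 lies lowest in both states. Sec13, at 759 per kb, lies near 0 at LPS 3 h, with 0.01, not called.

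Sequence upstream of the start was compared for members that moved together. RefSeq windows on GRCm38.p6 were found by name for 27 of the 32 members, 30 windows in all, and the 250 bases before each start were searched. Shown here are the 5 members that went from lower to higher, and then Nup107 and Gle1, lower in both states and ranked first by the smaller of their falls among members whose window holds 150 bases clear of annotated exons. Each line gives these bases 5' to 3', with matches to the motifs named below in capitals.
Ranbp2, chr10:58446702-58446851, plus strand: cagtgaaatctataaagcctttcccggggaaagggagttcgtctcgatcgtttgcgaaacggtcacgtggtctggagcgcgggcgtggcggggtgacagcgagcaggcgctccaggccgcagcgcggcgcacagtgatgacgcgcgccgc
Nupl1, chr14:60251480-60251629, minus strand: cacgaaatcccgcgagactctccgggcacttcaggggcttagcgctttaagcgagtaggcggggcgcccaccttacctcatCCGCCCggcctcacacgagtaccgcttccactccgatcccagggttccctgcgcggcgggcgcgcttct
Nup54, chr5:92435220-92435369, minus strand: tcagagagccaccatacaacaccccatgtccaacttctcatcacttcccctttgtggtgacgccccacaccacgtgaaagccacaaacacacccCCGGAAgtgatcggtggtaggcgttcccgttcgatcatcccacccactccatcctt
Ahctf1, chr1:179804016-179804165, minus strand: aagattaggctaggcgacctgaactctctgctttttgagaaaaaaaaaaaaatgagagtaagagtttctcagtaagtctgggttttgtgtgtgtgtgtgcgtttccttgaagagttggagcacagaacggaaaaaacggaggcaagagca
Nup153, chr13:46727941-46728090, minus strand: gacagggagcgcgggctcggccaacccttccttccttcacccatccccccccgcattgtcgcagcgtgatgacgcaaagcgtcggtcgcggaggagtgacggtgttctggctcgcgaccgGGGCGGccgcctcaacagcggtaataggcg
Nup107, chr10:117792706-117792855, minus strand: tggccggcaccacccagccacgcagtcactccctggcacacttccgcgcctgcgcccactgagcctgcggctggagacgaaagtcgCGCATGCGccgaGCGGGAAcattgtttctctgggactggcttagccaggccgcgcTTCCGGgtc
Gle1, chr2:29935259-29935408, plus strand: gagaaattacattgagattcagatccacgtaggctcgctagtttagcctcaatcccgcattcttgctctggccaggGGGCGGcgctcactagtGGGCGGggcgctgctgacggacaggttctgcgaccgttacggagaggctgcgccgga
The 5 windows share no single motif. That of Ahctf1 has 42.0% G and C with 4 CpG, and that of Ranbp2 65.3% with 21, both with no motif match in these letters. The Ahctf1 bases precede its RefSeq start and do not adjoin its GENCODE M21 gene, which begins at 179803680 on the minus strand. Nor do the bases of Ranbp2, Nupl1 and Gle1 adjoin their GENCODE M21 genes, which begin at 58446920, 60251431 and 29935426. Nupl1 and Nup153 each hold a GC box and Nup54 an ETS core. Nup107 holds an NRF1 core read on both strands, an E2F-like element and an ETS core, and Gle1 a pair of GC boxes. Over the 250 bases the members had a median of 63.0% G and C and 20.5 CpG, against 59.6% and 15 for the 12563 windows of genes in the tables, and 52.4% and 6 for all 32851 windows.

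On either strand, the GC box GGGCGG stood in 17 of the 30 member windows (56.7%), against 56.3% of windows of genes in the tables and 32.7% of all windows. The CCAAT box stood in 12 (40.0%), against 35.2% and 33.8%, and the ETS core CCGGAA in 8 (26.7%), against 21.5% and 12%. The cell cycle element (CHR) TTTGAA stood in 7 (23.3%), against 10.7% and 16%, and its other form TTCGAA in 0, against 1.74% and 1.34%. TTTGAA stood in windows of Nup37, Ndc1, Pom121, Nup98, Sec13 and Tpr, of which Nup98, Sec13 and Tpr were lower in neither state. The E2F-like TTCCCGC stood in 2 (6.67%), against 6.76% and 3.82%, and TTGGCGC in 0, against 3.26% and 1.97%. The NRF1 core GCATGCG stood in 3 (10%), against 5.29% and 3.02%, and the CRE core TGACGT in 4 (13.3%), against 9.85% and 6.47%. Most of these shares are near those of other genes in the tables. Windows are counted and not genes, so a gene with more than 1 window can count more than once. Both windows of Nup37, which overlap, hold TTTGAA, the CCAAT box and the ETS core. Both windows of Nup93 hold the CCAAT box, and both of Nup98 the GC box. Searched on both strands, GCATGCG overlaps itself within CGCATGCG, which counts as 1 window here, and no motif contains another. A match is a description of letters and not a bound site.

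Other genes of nuclear transport, from fixed lists, were compared with the same shares of all genes tested, 17.8% lower and 21.3% higher unstimulated and 20.0% lower and 28.1% higher at LPS 3 h. Among 18 import receptors 11 were lower and 2 higher unstimulated, with a median log2 fold change of -0.16, and 4 were lower and 4 higher at LPS 3 h, both near or below the background. Kpna2, an importin alpha, had the largest fall in both states, with -1.10 (adjusted p = 1.76e-66, SE 0.06) and -0.42 (adjusted p = 7.18e-13, SE 0.06) in the authors' deposited table. Rises were led by Ipo7 unstimulated at 0.16 (SE 0.05) and by Kpna3 at LPS 3 h at 0.78 (adjusted p = 3.44e-77, SE 0.04) in the authors' deposited table. Exportin and mRNA export genes were lower in 10 of 20 cases unstimulated, led by Cse1l, the exporter of importin alpha, at -0.55 (SE 0.07) by the authors' deposited table. At LPS 3 h 8 of these 20 were lower and 2 higher, with Mcm3ap at -0.36 (SE 0.06) and the mRNA export receptor gene Nxf1 at 0.43 (SE 0.05) by the authors' deposited table. The Ran system, which sets the direction of transport, was lower in 4 of 6 genes unstimulated and 2 of 6 at LPS 3 h. It was led by Rangap1, the activator of Ran's GTPase that docks on Ranbp2, at -0.90 (adjusted p = 1.76e-34, SE 0.07) and -0.35 (adjusted p = 3.31e-07, SE 0.06) in the authors' deposited table. Genes of the lamina and nuclear envelope were lower in 9 of 17 cases and higher in 1 unstimulated, and lower in 7 and higher in 6 at LPS 3 h. Lmnb1, lamin B1, had -1.77 (SE 0.11) and -1.48 (SE 0.13), and Syne3, a linker of the outer membrane, 0.18 (SE 0.06) and 1.36 (SE 0.05), by the authors' deposited table. Tmpo, with the smallest p of this list unstimulated, had -1.61 (adjusted p = 1.80e-141, SE 0.06) in the authors' deposited table. The difference between states was called positive for 7 import receptors, 7 export genes, 4 Ran genes and 9 lamina and envelope genes. It was called negative for 1, 2, 0 and 0, against 18.2% positive and 12.4% negative of all genes tested. Of 12 genes for subunits of the MOF complexes, Kat8 included, 5 were higher and 2 lower unstimulated, and 4 higher and 3 lower at LPS 3 h, shares near the background apart from the 5 higher. Their largest rises were Mcrs1 unstimulated at 0.31 (SE 0.07) and Msl2 at LPS 3 h at 0.29 (SE 0.05) by the authors' deposited table.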

How the data were processed

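RNA of 12 libraries, in 4 groups of 3, was measured with a stranded paired-end mRNA kit (reads of 100 bp), per the labels' protocol. The submitters' processing notes name DESeq2 and mm10; the sources used here do not give aligner, counter, annotation or strand setting. The authors deposited 2 tables, shMOF against shCTRL in each state. Per the file headers they hold a mean normalized count (a signal, identical in both tables), a log2 fold change and its SE in log2 units, the Wald statistic (a score, equal to fold change over SE within 1.53e-13), p-values and adjusted p-values. The authors left 277 genes without an adjusted p at LPS 3 h, none of them a member.

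Deposited effects were used as they stand. The effects of both states were subtracted and set against the combined SE (squares added, root taken). A two-sided p came from the normal distribution, adjusted by Benjamini-Hochberg for the 12994 genes whose mean was at least 10. This takes the errors as uncorrelated; the comparisons share no libraries. Intervals are 95% from the SE. The code was tested on simulated data. Exon length and coordinates are from GENCODE M21 (GRCm38, which is mm10), matched by ID for 14214 genes. Every member called in any comparison is named with its statistics; from other lists the largest rise, the largest fall and the smallest p are named. Members and lists were chosen with earlier results of these data known. Python 3.11.15, pandas 2.3.3 and scipy 1.17.1 were used.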

Additional observations from a re-analysis of the deposited data

Results flagged for a closer look

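For 16 member genes the knockdown effect differed between LPS 3 h and unstimulated cells, by the test of the difference (adjusted p under 0.05 over 12994 genes). Of the 32 members 14 differed upward (43.8%) and 2 downward (6.25%), against 18.2% and 12.4% of all genes tested. The share of negative differences was thus below the background. On the log2 scale the difference, LPS 3 h minus unstimulated, was 0.92 for Nup210, 0.68 for Ranbp2, 0.67 for Nupl1, 0.57 for Nup54, 0.55 for Ahctf1 and 0.54 for Nup160. It was 0.39 for Nup153, 0.39 for Seh1l, 0.33 for Nup98, 0.32 for Tpr, 0.32 for Nup62, 0.28 for Nup50, 0.27 for Nup188 and 0.24 for Nup205. It was negative for Aaas, at -0.27, and for Nup214, at -0.25. Ranges of single libraries could not be examined, as the tables hold none.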

How the results depend on the processing

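Centring the fold changes on their median was the single alternative that could turn a direction, and it turned Sec13 at LPS 3 h, not called, to -0.018. The others leave the fold changes as deposited and bear on the calls. Of 573 values of single members under the alternatives, 478 kept direction and call, 94 lost the call and 1 changed sign. Centring and adjustment over other sets of genes changed no call. With a null of a log2 change of at most 0.25, 7 members were lower unstimulated, 3 lower and 3 higher at LPS 3 h. With a minimum log2 change of 0.5 these counts were 5, 2 and 0, and with a minimum difference of 0.5 the states differed for 6 members upward and 0 downward. The 2 negative differences were lost (0 left) at a threshold of 0.01 and with the SE of the difference as the sum of both SE. Under these the positive differences numbered 12 and 10, in place of 14. Nup205 and Nup188 were lost under both, and Nup210 and Nup98 with the summed SE. Leaving out single libraries was not run, since the tables hold no values per library. No paired analysis was possible because the tables give comparisons only, without values per library. Depth per library is unknown, so precision is known through the SE, with a median over members of 0.07 unstimulated and 0.06 at LPS 3 h.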
